A study of Mus musculus with 2 samples.

Results

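The miRNAs described here carry the numbers miR-5097 to miR-5136 in the mouse miRNA register. They were chosen by probe name alone: every probe for a mouse miRNA with a number in that range was included, whatever its letter, arm or brightness. This gave 38 of the 1900 mouse miRNA probes, which cover 33 of the 40 numbers. RNA came from colonic epithelial cells of C57BL/6 mice aged 8 weeks. The control array (n = 1) carried RNA of cells labelled as control, and the DSS array (n = 1) that of cells from mice with 2.5% dextran sulfate sodium in the drinking water for 5 days. Dextran sulfate sodium (DSS) damages the lining of the colon and is widely used to inflame it, and the design set this inflammation against the control. Total RNA labelled with the dye Hy5 was hybridised in 1 colour to 1 array per condition, so differences carry no p-value and no replicate check, and their precision is limited by the number of arrays. The labels do not say how many mice gave cells to a sample, nor whether cells were pooled.

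A miRNA is cut from a hairpin precursor by the nucleases Drosha and Dicer, and 1 of the 2 arms is usually kept by an Argonaute protein. The bases 2 to 8 of the mature strand, its seed, pair with target messages and lower their stability and translation. Numbers in the register follow the order of submission, so neighbouring numbers need share neither ancestry nor targets. Many entries with high numbers came from sequencing surveys and lie inside protein-coding genes. The sources used here give no function for the miRNAs of this range, and they are described by their sequence, place and values.

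RefSeq mature sequences (GRCm38.p6) were found for 32 of the 38 probes, and 6 had no match (miR-5099, miR-5107-5p, miR-5107-3p, miR-5112, miR-5127 and miR-5134-5p). The following lines show the 2 miRNAs that differed by 2-fold or more and then the brightest others, 5′ to 3′, with the seed in capitals.
miR-5119: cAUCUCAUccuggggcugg
miR-5100: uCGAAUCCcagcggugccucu
miR-5126: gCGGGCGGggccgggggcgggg
miR-5132-5p: gCGUGGGGugguggacucagg
miR-5130: cUGGAGCGcgcgggcgaggcaggc
miR-5128: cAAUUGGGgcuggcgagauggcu
miR-5116: uUUGAUAGgaaccccgccuga
miR-5134-3p: aCGGGUGGcccucuuucugcag
miR-5122: cCGCGGGAcccggggcugug

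miR-5126 consists of G and C bases alone, while miR-5116 holds 52.4% of them. Each of the 32 sequences had its own seed, so no pair of these miRNAs belongs to 1 seed family. Across the 496 pairs, 7 shared a run of 8 or more bases. The longest shared run had 12 bases and joined miR-5124a and miR-5124b, shown with that run in capitals because it lies at different positions and leaves the seeds unlike.
miR-5124a: ggucCAGUGACUAAGAgcau
miR-5124b: uggcuCAGUGACUAAGAagca

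A seed was shared with miRNAs outside the range in 5 cases. The seed of miR-5124b is that of miR-24-3p, among others, and miR-5129-3p shares its seed with miR-455-5p. miR-5110 shares a seed with miR-7081-5p, miR-5106 with miR-6897-3p and miR-5114 with miR-7094b-2-5p. The partners of miR-5110 and miR-5106 and miR-24-3p were measured on both arrays, with normalised log2 differences, DSS minus control, of −0.51, 0.08 and 0.00. Their seed mates in the range stood at −0.36 (miR-5110), at −0.03 (miR-5106, near the detection limit) and, for miR-5124b, over the limit with DSS alone.

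By RefSeq coordinates 29 of the 32 sequences lie within the span of a gene, 28 of them a protein-coding gene, on 16 chromosomes. The same count was not made over all probes, so it does not set the range apart from other miRNAs. Exon, intron and the gene's strand were not determined here. miR-5119 (chr11:98262638-98262656, plus strand) lies within Cdk12, a kinase of the RNA polymerase II tail. miR-5100 (chr11:60728698-60728718, plus strand) lies within Mief2, a factor of mitochondrial dynamics. miR-5126 (chr1:84695890-84695911, plus strand) lies within Dner, a transmembrane Notch ligand of neurons. The Mir5132 hairpin (chrX:74023528-74023598, minus strand) lies within Irak1, a kinase of interleukin and Toll-like receptor signalling. Other genes that span such hairpins are Pax5 (miR-5120), the B cell transcription factor, Zeb2 (miR-5129), a repressor of E-cadherin, and Tnrc6b (miR-5113), an Argonaute partner in silencing. Messages of these genes were not measured on the arrays.

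Many of the 38 probes gave signal. A probe counted as measured when its spot exceeded the trimmed mean of the blank spots by 2 SD, which is 99.6 (control) and 130.9 (DSS). On the control array 30 of 38 did so (78.9%), against 56.3% of all 1900 mouse miRNA probes, and on the DSS array 28 of 38 (73.7%), against 61.5%. Both arrays measured 26 of them (52.4% of all probes were measured on both). The control array alone measured 4 (3.95% of all probes), the DSS array alone 2 (9.16%) and neither array 6 (34.5%). The highest mean of the negative control spots was 105.8 (control) and 137.6 (DSS), and 27 (control) and 24 (DSS) of the 38 exceeded it, beside 47.8% and 45.6% of all probes.

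**Figure D1:**
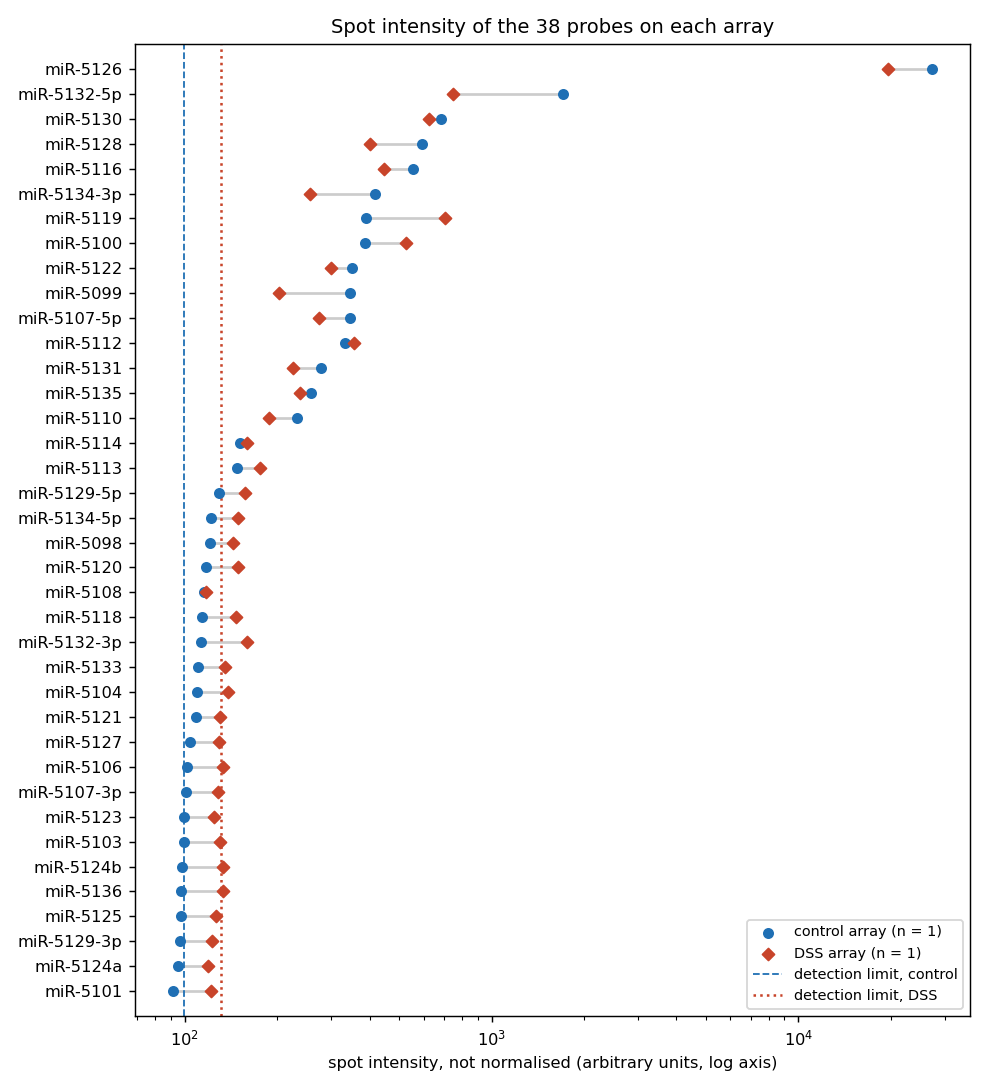
Spot intensity of each of the 38 probes (horizontal log axis, arbitrary units, not normalised) on the control array (blue circles) and the DSS array (red diamonds), 1 array each, ordered by the control array, with the detection limits as vertical lines. miR-5126 stands far to the right on both arrays, and of the 17 brighter probes measured on both arrays, miR-5119, miR-5100, miR-5112, miR-5113 and miR-5114 have the higher spot on the DSS array.

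Among spots, miR-5126 was by far the brightest of the range, with an intensity of 27361 (control) and 19658 (DSS). Both readings are whole numbers, as for 21 (control) and 20 (DSS) of the 3200 spots, none of which read below 16111 and 19658. What sets such spots apart was not tested. miR-5126 ranked 2 and 4 among all mouse miRNA probes. Brightness depends on the probe as well as on the amount of RNA, so these ranks order spots and not RNA amounts. miR-5132-5p followed with 1705 (control) and 747 (DSS). miR-5130 gave 683 and 626, miR-5128 gave 595 and 400, and miR-5116 gave 554 and 446. Each of these 5 spots was dimmer on the DSS array, although the blank spots there were brighter, with a trimmed mean of 121.8 against 92.7. The same held for most bright probes: of the 497 in the brighter part of those measured on both arrays, 84.9% had less intensity over blanks on the DSS array, and of the 17 of this range 15 had less.

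Differences below are log2 values, DSS minus control. They were formed from intensities corrected by a model with an offset of 50 and quantile normalised over all mouse miRNA probes. This compares each miRNA's place in the order of its array and shrinks folds of dim probes. A difference is counted from 2-fold. Fewer cells of a type and less RNA per cell cannot be told apart in such bulk samples.

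miR-5119 and miR-5100 were at least 2-fold higher on the DSS array, 2 of the 26 measured on both, beside 0.503% (5 of 995) of all mouse miRNA probes. The miR-5119 spot read 389 (control) and 706 (DSS), against 166.6 and 459.8 as listed by the authors' deposited table. It went from rank 155 to rank 63, a normalised difference of 1.64 or 3.11-fold, the highest of the 995. For miR-5100 the spot read 387 and 525, and the authors' deposited table lists 165.5 and 317.5. It went from rank 157 to rank 92, a normalised difference of 1.03 or 2.05-fold. Both spots were brighter on the DSS array before any scaling, unlike most bright spots. Their log2 ratios of intensity over blanks were 0.98 for miR-5119 and 0.46 for miR-5100, while the 497 brighter probes had a median of −0.51.

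The size of both differences depends on the scaling between the arrays. miR-5119 stood at 0.76 with median scaling, 0.86 with no scaling, 1.49 with cyclic loess and 1.46 in the authors' deposited table. For miR-5100 these values were 0.30, 0.40, 0.98 and 0.94. Scaling to the spike control spots, which moved the median of the 995 miRNAs to −1.02, turned both below 0, to −0.11 for miR-5119 and −0.57 for miR-5100. Relative to that median they lay 0.92 and 0.45 higher. The files also hold a background value for each spot. No label or file header says which area it covers, and over all 3200 spots it rose with the spot itself (Spearman's rho 0.719 (control) and 0.628 (DSS)). Its subtraction left 0.28 and 0.52.

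miR-6238 and miR-6907-5p were among the 3 probes nearest in level on both arrays for each of these miRNAs. Their normalised differences were 0.97 for miR-6238 and 0.91 for miR-6907-5p. The third nearest was miR-6972-5p (0.49) for miR-5100 and miR-5100 itself for miR-5119. Nearness here is the distance between normalised log2 values on 2 arrays, so similar differences follow from the choice. It says that the levels are alike and no more.

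**Figure D2:**
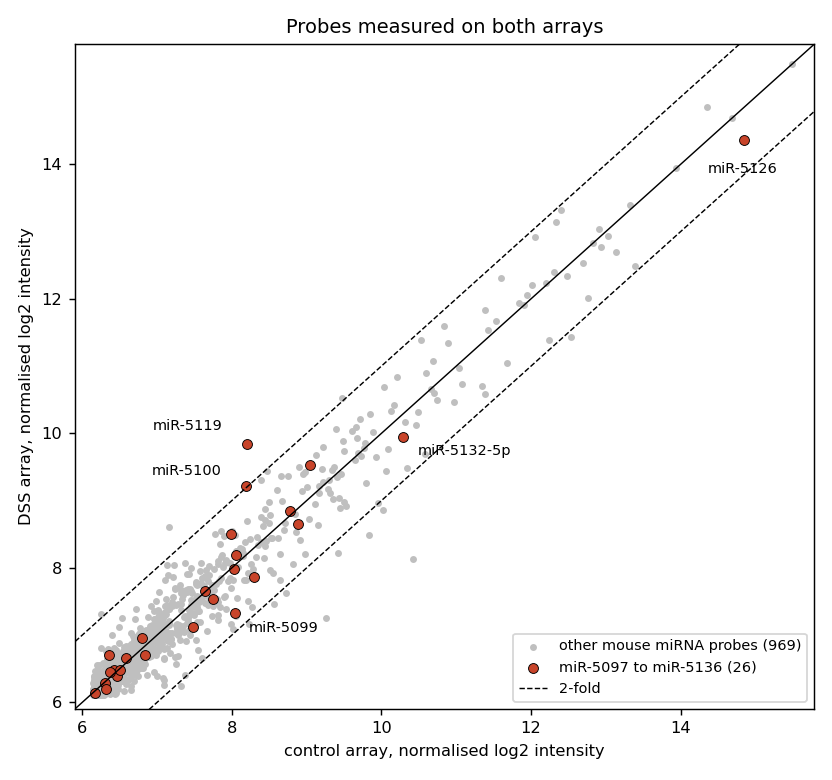
Normalised log2 intensity on the control array (horizontal) against the DSS array (vertical) for probes measured on both arrays, with the 26 of the range miR-5097 to miR-5136 in red and the other 969 in grey. miR-5119 and miR-5100 lie on or above the upper dashed 2-fold line, and no red point lies below the lower one.

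After quantile normalisation decreases stayed under 2-fold in this range: 0 of 26 were at least 2-fold lower, beside 1.01% (10 of 995) of all probes. miR-5099 came closest. Its spot read 346 (control) and 202 (DSS), and the authors' deposited table lists 142.5 and 63.4. It went from rank 173 to rank 287, a normalised difference of −0.71, and was the 1 of 26 that reached 1.5-fold downward, beside 4.22% of all probes. Upward, the 2 past 2-fold were also those past 1.5-fold, beside 3.22% of all probes. Under the 11 other settings miR-5099 stayed lower, from −0.27 with the files' background value subtracted to −2.09 with scaling to the spike controls. In the authors' deposited table it was at −1.17.

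miR-5126 changed ranks from 2 to 4, which quantile normalisation turns into −0.49. The authors' deposited table lists 15346 and 15375 for it, a log2 difference of 0.003. Subtraction of the files' background value gave 3.47. That background value was 27347 for control, 99.9% of the spot, and 18343 for DSS, 93.3% of it. Over the 12 settings the difference of this very bright spot ran from −1.45 to 3.47.

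The spot of miR-5132-5p dimmed from 1705 (control) to 747 (DSS). Its rank moved from 51 to 59, and the normalised difference was −0.33. With no scaling it was −1.28 and in the authors' deposited table −0.88. miR-5134-3p, from the hairpin within the cyclin F gene Ccnf, read 416 (control) and 256 (DSS), at −0.43. miR-5110, within Bcas3, read 232 and 187, at −0.36. These 2 were lower also with cyclic loess (−0.50 and −0.37) and in the authors' deposited table (−0.78 and −0.60), while subtraction of the files' background value put miR-5134-3p at 0.12.

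A further group of bright probes moved by 1.43-fold or less. miR-5112 read 333 (control) and 355 (DSS), and miR-5130 read 683 and 626. Their normalised differences of 0.52 and 0.49 were the next highest after miR-5100, but they were −0.02 and −0.20 with no scaling and −0.51 and −0.67 with the files' background value subtracted. miR-5128, within Strbp, was at −0.23 and miR-5131, within the phospholipase gene Ddhd1, at −0.21. Spots of miR-5131 read 278 and 225. miR-5122 read 351 and 299 and was at 0.14. miR-5116 (0.07), miR-5135 (0.01), with spots of 257 and 237, and miR-5107-5p (−0.04), with 344 and 273, kept nearly the same rank. miR-5113 read 148 and 176, at 0.15, and miR-5114, within the desaturase gene Scd2, read 151 and 159, at −0.14.

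The 9 dimmer probes measured on both arrays lay between −0.11 (miR-5133) and 0.35 (miR-5132-3p), where the offset shrinks differences. They were miR-5129-5p (129 (control) and 157 (DSS)), miR-5134-5p (122 and 148), miR-5098 (120 and 143), miR-5120 (117 and 148), miR-5118 (114 and 147), miR-5132-3p (113 and 159), miR-5133 (110.0 and 134.7), miR-5104 (109.8 and 138.4) and miR-5106 (101.4 and 132.6). Of the 9, 4 were higher and 5 lower after normalisation, beside 45.4% higher among the 498 dimmer probes measured on both arrays. In the authors' deposited table, which carries no offset, all 9 were higher on the DSS array, by 0.06 to 1.36. That table lists 80.1% of the 498 dimmer probes measured on both arrays as higher.

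miR-5132-3p was the dim probe with the largest difference. The authors' deposited table lists 11.5 (control) and 29.6 (DSS). It thereby passed 2-fold there (1.36), along with miR-5119 (1.46), so that 2 of 26 were higher, beside 8.94% of all probes. miR-5099 was the 1 of 26 at least 2-fold lower in that table, beside 4.12% of all probes. On the control array miR-5132-3p lay 20.5 over blanks, against 13.2 for the brightest negative controls.

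Both arms of 4 hairpins had a probe. The Mir5132 hairpin is shown because its arms differed in sign, and Mir5129 because only its 5p arm was measured, with both mature arms in capitals, 5p before 3p.
Mir5132: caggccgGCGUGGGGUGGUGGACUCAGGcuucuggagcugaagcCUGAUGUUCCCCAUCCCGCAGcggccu
Mir5129: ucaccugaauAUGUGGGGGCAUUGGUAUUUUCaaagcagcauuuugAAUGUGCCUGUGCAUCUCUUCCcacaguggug

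For Mir5132 the 5p arm was at −0.33 and the 3p arm at 0.35. With scaling to the spike controls both arms were lower (−2.25 and −0.65), and the 3p arm stood above the 5p arm under each of the 12 settings. For Mir5134 the bright 3p arm was at −0.43 and the dim 5p arm at −0.02. The 5p arm of Mir5129 was measured on both arrays (0.07) and its 3p arm on neither, with spots of 96.6 and 122.3. miR-5107-5p was measured on both arrays (−0.04), and miR-5107-3p on the control array only.

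The 12 probes measured on a single array or on neither were all dim. On the control array alone these were miR-5108, miR-5121, miR-5127 and miR-5107-3p, with spots of 115.2, 108.5, 104.2 and 101.1 there and 117.1, 130.2, 129.4 and 128.3 on the DSS array. The bound set against them is the DSS value of the probe itself or the lowest value measured there, whichever was higher. By it, after quantile normalisation, miR-5108 was at least 1.22-fold higher on the control array, and miR-5121, miR-5127 and miR-5107-3p at least 1.13, 1.08 and 1.05-fold. With the 75th percentile of probes measured on both arrays as the scale, these last 3 turned higher on the DSS array, by 0.25, 0.32 and 0.36 (log2), so their direction depends on the scaling. miR-5108 was the 1 of these with a DSS spot below the mean of the blanks. On the DSS array alone, miR-5136 (96.8 (control) and 133.4 (DSS)) was at least 1.02-fold and miR-5124b (98.0 and 133.3) at least 1.01-fold higher, while scaling to the spike controls put both lower there (−0.75 and −0.78). The 6 measured on neither array were miR-5101, miR-5103, miR-5123, miR-5124a, miR-5125 and miR-5129-3p, with spots from 91.5 to 99.6 (control) and from 118.8 to 129.9 (DSS). miR-5123 at 99.6 and miR-5103 at 99.4 lay just under the control limit.

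The balance of directions among the 26 depends on the scaling. After quantile normalisation, which brings both arrays to 1 distribution, 12 were higher and 14 lower (46.2% higher, beside 48.5% higher and 50.4% lower among all probes), and their median difference was −0.02, beside −0.003 over the 995. With median scaling 5 were higher and 21 lower, beside 22.1% higher among all probes. With scaling to the spike controls 0 were higher and 26 lower, beside 0.101% higher, and with the files' background value subtracted 8 were higher and 18 lower, beside 49.4% higher. Pearson's r of DSS on control normalised values was 0.964 across these 26, which share 2 arrays and are no independent replicates. Of the 17 brighter ones 8 were higher and 9 lower, beside 51.7% higher among the 497 brighter probes.

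**Figure D3:**
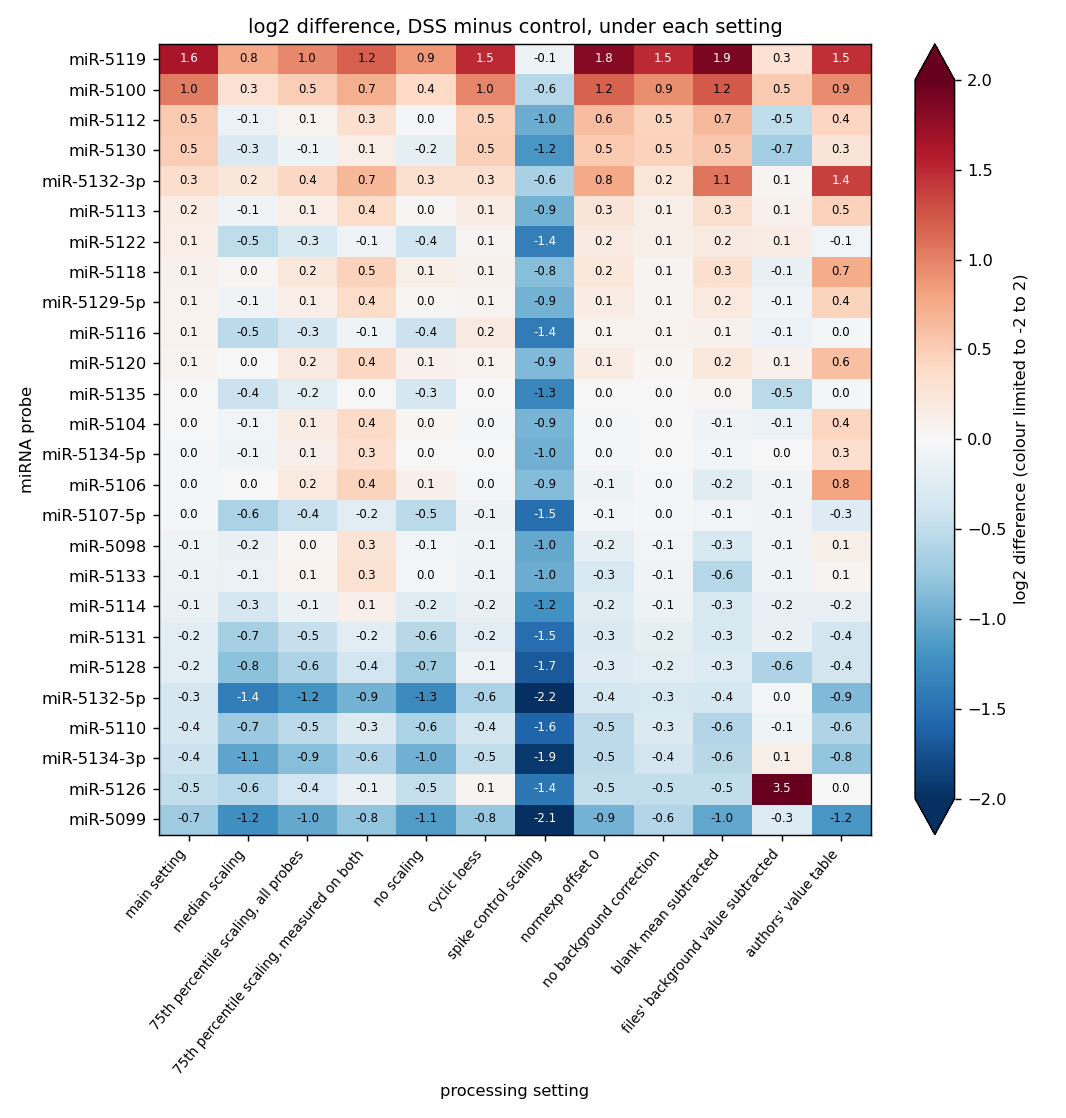
Log2 difference, DSS minus control, of the 26 probes measured on both arrays (rows) under each processing setting (columns), coloured from blue (lower on the DSS array) to red (higher). miR-5119 and miR-5100 are higher in every column other than scaling to the spike controls, miR-5099 is lower in every column, and miR-5126 runs from −1.45 to 3.47.

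Base composition went along with brightness, a feature the choice by number did not use. Over the 32 probes with a sequence, Spearman's rho between the share of G and C bases and spot intensity was 0.626 (control) and 0.690 (DSS). Over all 1614 mouse miRNA probes with a sequence it was 0.681 and 0.637, so this relation is not particular to the range. Pearson's r with log2 intensity was 0.707 and 0.688 for the 32. The 10 brightest had a median of 67.5% G and C and the other 22 one of 51.1%. Of 7 sequences under 50% G and C, a bound chosen after the values were seen, 2 were measured on both arrays (miR-5129-5p and miR-5098), and none exceeded a spot intensity of 129 on the control array. These counts were not made over all probes, so they do not set the range apart from other miRNAs. Outside the range, miR-494-3p also lies under 50%, was measured on both arrays and exceeded 129 on the control array. High content did not ensure a bright spot: miR-5133 with 76.2% read 110.0 there. These points share the arrays and the probe chemistry, so the relation is a description. With the difference between the arrays, G and C content had a rho of −0.143 over the 22 sequences measured on both.

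**Figure D4:**
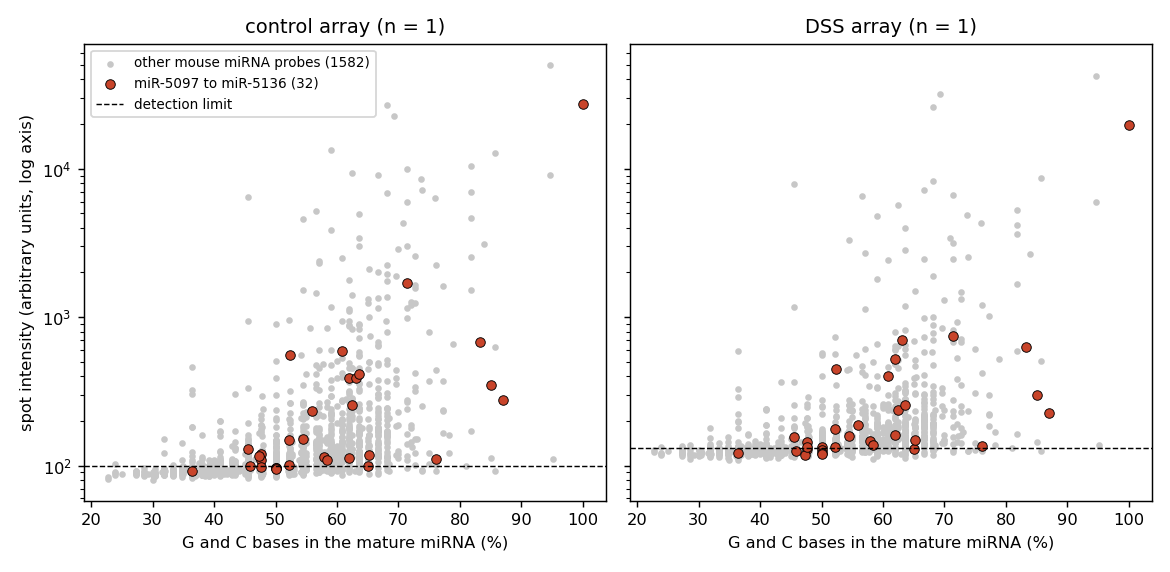
Share of G and C bases in the mature miRNA (horizontal, %) against spot intensity (vertical log axis, arbitrary units) on the control array (left) and the DSS array (right), with 32 probes of the range in red, the other 1582 in grey and the detection limit dashed. Red points under 50% reach at most 129 (control) and 157 (DSS), with limits of 99.6 and 130.9. At the right end miR-5126, with G and C alone, is the brightest of the range on both arrays.

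The files' background value lay close to the spot itself for many of these probes. Among the 17 brighter ones it had a median of 85.5% (control) and 93.3% (DSS) of the spot, beside 86.2% and 80.3% over the 497 brighter probes. It exceeded the spot for 7 (control) and 12 (DSS) of the 38 probes, beside 14.5% and 15.1% of all probes. miR-5119 was among them on both arrays, at 108.9% and 100.5%, while miR-5100 had 72.7% and 69.8%. The part of this background value in the differences was not tested beyond its subtraction.

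Markers of the tissue and of other cells were read on the same arrays. All 7 gut epithelial miRNAs were measured on both arrays, with a summed authors' value of 513 (control) and 721 (DSS). Of 7 leukocyte miRNAs 3 (control) and 4 (DSS) were measured, with sums of 28.8 over 3 probes and 125.0 over 4, and miR-142a-3p, miR-155-5p and miR-146a-5p on neither. Red cell miRNAs summed to 49.2 and 103.3 (2 of 3 measured, miR-144-3p on neither), and smooth muscle and fibroblast miRNAs to 616 and 670 (6 of 7 measured, miR-1a-3p on neither). Endothelial miRNAs summed to 6.55 and 8.91 (1 of 2, without miR-126a-5p) and neuronal ones to 11.6 and 20.9 (1 of 4 (control) and 2 (DSS), miR-124-3p and miR-9-5p on neither). In the authors' values the median log2 difference of all 995 miRNAs measured on both arrays was 0.21. A higher sum on the DSS array therefore does not by itself show more of these miRNAs. The median normalised difference over the markers measured on both arrays was 0.43 for gut epithelium (7 probes), 0.24 for leukocytes (3), 0.46 for red cells (2), 0.05 for smooth muscle and fibroblasts (6), −0.06 for endothelium (1) and −0.06 for neurons (1). The part of leukocyte and red cell RNA in the values of miR-5119 and miR-5100 was not tested.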

How the data were processed

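Each sample, its total RNA carrying the dye Hy5 from a miRCURY LNA labelling kit per the labels, lay on 1 array. The group came from the agent named in the labels. Per the file headers, the deposited spot and background values are median intensities that combine scans at 3 gains, for 3200 spots. The authors' deposited value table holds 1 intensity per probe on a linear scale with a median of 25 on both arrays. Each value equals the spot intensity minus the blank mean, times 0.563 (control) or 0.787 (DSS). How the authors made it was not stated in the labels or headers.

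Probes measured were those above the blank mean plus 2 SD, the mean being trimmed by 45 of 896 blank spots at each end (blank SD 3.49 and 4.53). miR-3081-3p, with a poor quality mark, counted as not measured. The normexp correction of limma 3.58.1 in R 4.3.3 (offset 50, fitted to all spots) was applied, and values were log2 transformed and quantile normalised over 1900 probes. Python 3.11.15 and pandas 2.3.3 were used for the rest. The procedure was tried on simulated arrays, built from these spot values, the spread of blank spots and that of replicate spike spots. The simulated arrays held no difference in signal scale between the arrays and no variation between mice, and say nothing about either. Each group held 1 array, so no difference was tested. Brighter probes are those above the median normalised level of the 995 measured on both arrays. Named are all 38 probes, and as others the 3 nearest in level to each that passed 2-fold. Seed mates are also named, though not all of those of miR-5124b. Further names are markers measured on neither array, neighbours on the array, miR-3081-3p and, as an example, miR-494-3p. The range, lists and alternatives were chosen with earlier results of these data known. Alternatives covered scaling, background correction, detection limit and fold threshold. Sequences and gene spans came from RefSeq (GRCm38.p6).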

Additional observations from a re-analysis of the deposited data

How the results depend on the processing

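The 2 of 26 miRNAs at least 2-fold higher were again miR-5119 and miR-5100 with an offset of 0 (beside 1.61% of all probes). At 1.5-fold the same 2 were counted (3.22%). Both also stayed among the 17 brighter probes and with a limit of 3 SD, which leaves fewer probes measured. The share of all probes was not counted under these last 2 restrictions. The authors' deposited table also gave 2, miR-5119 and miR-5132-3p (8.94%), and subtraction of the blank mean gave 3, these 2 and miR-5100 (3.42%). The count was 0 when arrays were scaled by the median (0.0%), by the 75th percentile of all probes (0.201%) or by the spike controls (0.0%), or left unscaled (0.101%). It was 1, miR-5119, with that percentile over probes measured on both arrays (0.302%), with cyclic loess (0.402%) and with no background correction (0.302%), and 1, miR-5126, with the files' background value subtracted (2.11%). The count at least 2-fold lower (0) became 3 with median scaling (6.33%), 2 by the 75th percentile of all probes (4.12%), 2 unscaled (5.13%) and 14 by the spike controls (53.8% of the 26, beside 55.2% of all probes). It was 1, miR-5099, with the blank mean subtracted (4.42%), in the authors' deposited table (4.12%) and at 1.5-fold (4.22%). The median difference of −0.02 became −0.22 with median scaling, 0.21 by the 75th percentile of probes measured on both arrays and −1.09 with the spike controls, where miR-5119 (−0.11) and miR-5100 (−0.57) changed sign. Relative to the median of all probes it was −0.07 under the 4 scalings by 1 factor per array and unscaled, and −0.12 in the authors' deposited table. The causes of these shifts were not tested. The numbers measured, 30 and 28, were 28 and 24 at 3 SD, 28 and 25 with untrimmed blanks and 27 and 24 above the negative controls. No paired analysis was possible because each group holds 1 array. With 1 array per group, differences between mice and hybridisations are unknown, and signal near the blanks limits the dim probes.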

Other observations

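The layout of the arrays was read after the values were seen. The spot of miR-5126 lies in 1 row with those of miR-5132-5p to its left and miR-5119 to its right, while the spots above and below it, miR-3095-3p and a QC-Probe, read 109.8 and 129.1 (control) and 145.2 and 155.2 (DSS). The spot below miR-5119 is a Spike Control 1 spot, which read 18280 (control) and 31609 (DSS). Its other neighbours, miR-467f and miR-1306-5p, read 113.5 and 161.6 (control) and 139.8 and 178.4 (DSS). Of the miRNA probes that lie beside a spike spot, 31 were measured on both arrays, with a median normalised difference of 0.04. Among them miR-5119 was the 1 at least 2-fold higher on the DSS array, beside 0.503% of all mouse miRNA probes measured on both. Of all 40 miRNA probes beside a spike spot, 4 (control) and 2 (DSS) read at least as high as miR-5119, counts that include miR-5119 itself. Among all 1900 mouse miRNA probes, miR-5119 ranked 155 (control) and 63 (DSS). miR-5100 lies beside no spot brighter than 152.7 on the control or 183.9 on the DSS array. The part of neighbouring spots in the value of miR-5119 was not tested beyond these readings.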
